A study of Homo sapiens with 13 samples.

Results

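The 6 genes LRP1B, LSAMP, DAB1, DPYD, CNTNAP2 and CTNNA3 were followed as long genes that overlap chromosomal fragile sites, among 59084 annotated genes on chromosomes 1 to 22 and X. They were taken by name, and the direction of DNA replication was read across each RefSeq span and 500 kb on either side. Each span holds at least 15 full windows of 20 kb, as do 898 annotated genes. LSAMP, an IgLON adhesion protein held to neuronal membranes by a lipid anchor, lies on chromosome 3 (115802374 to 116445487). CNTNAP2 (chromosome 7, 146116801 to 148420998) encodes a neurexin-like adhesion protein of axons. CTNNA3 (chromosome 10, 65912523 to 67763594) encodes alpha-T-catenin, which links cadherins to actin and is best known from heart muscle. DAB1 (chromosome 1, 56994778 to 58546726) encodes the adaptor that carries the reelin signal into migrating neurons. LRP1B (chromosome 2, 140231423 to 142131016) encodes an endocytic receptor of the LDL receptor family and is often deleted in tumours. DPYD (chromosome 1, 97077743 to 97921059) encodes dihydropyrimidine dehydrogenase, the enzyme that begins the breakdown of pyrimidines and of fluorouracil. DPYD and CTNNA3 are thus not chiefly neural genes, and reads of DNA ends hold no expression value against which the neural name could be set. Fragility was taken from the name of the group and was not measured.

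Common fragile sites are regions that show gaps and breaks on mitotic chromosomes when DNA synthesis is slowed. Many lie in very long genes that replicate late in S phase and hold few replication origins, so that forks starting outside the gene have far to travel before they meet. The direction of forks along such a gene therefore tells from which side it was copied.

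The data came from TrAEL-seq, in which free 3' ends of genomic DNA are tailed and ligated to an adaptor, so that the strand of each read gives the direction of a fork that left the end. The cells were PC9, an established line of human non-small cell lung cancer that depends on mutant EGFR, and the drug was osimertinib, an inhibitor of that kinase, dissolved in DMSO and given continuously at 500 nM. There were 3 untreated libraries taken during normal growth, 2 libraries at day 7, 2 at day 14 and 4 at day 28 of osimertinib, and 1 library from each of resistant lines 5 and 10. The resistant lines grew out of single-cell clones of PC9, were kept in 500 nM osimertinib and were growing when taken, whereas the cultures of day 28 did not proliferate. Day 28 replicates 3 and 4 carry a treatment label of 7 days beside their title and were kept at day 28 by title. The labels do not say whether replicates were grown separately, so the error in every test is that among libraries and could be technical only. Media of the study held drug or vehicle.

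Polarity runs from -100 to 100 points in each 20 kb window and is the surplus of reads on either strand over their sum. Positive values were read as rightward forks and negative values as leftward forks, because in untreated cells polarity climbed more abruptly than it declined over the genome. Comparing the 5 windows before a point with the 5 after it, the most extreme 0.5% of changes began at 112 points upward and at -83.4 points downward. This reading is an assumption, and turning the sign would exchange places where forks part and places where they meet. Read counts were not given in the sources used here, so the depth is unknown and no counting interval is given. As a guide to depth, 92.6% to 93.4% of windows had a value in the untreated libraries, 61.4% and 92.0% at day 7, 85.6% and 81.8% at day 14, 86.3% to 93.4% at day 28, and 93.0% and 93.1% in the lines. Of the 751 windows of the 6 regions, 418 had a value in all 13 libraries and could be tested singly.

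Promoter sequence is shown for starts at which the polarity profile either stepped or ran on without a step. RefSeq (GRCh38.p14) gave promoters for 5 of the 6 genes, and the 250 bases before the start are printed 5' to 3' on the strand of the gene, with each CG in capitals. DPYD, chr1:97921060-97921309, minus strand, lies at the steepest rise found at any promoter of these genes. DAB1 has an outermost start, chr1:58546727-58546976, minus strand, also at a rise. The RefSeq span of another gene, OMA1, ends at the same place. DAB1 has an internal start with more CG pairs, chr1:57424061-57424310, minus strand, inside the gene, close to where untreated polarity passed through 0. CNTNAP2, chr7:146116551-146116800, plus strand, showed no step.
DPYD: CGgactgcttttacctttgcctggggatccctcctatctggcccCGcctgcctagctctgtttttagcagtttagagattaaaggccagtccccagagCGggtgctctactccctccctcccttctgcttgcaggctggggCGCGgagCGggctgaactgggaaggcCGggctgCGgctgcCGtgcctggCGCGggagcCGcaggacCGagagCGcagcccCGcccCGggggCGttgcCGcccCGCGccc
DAB1 outermost start: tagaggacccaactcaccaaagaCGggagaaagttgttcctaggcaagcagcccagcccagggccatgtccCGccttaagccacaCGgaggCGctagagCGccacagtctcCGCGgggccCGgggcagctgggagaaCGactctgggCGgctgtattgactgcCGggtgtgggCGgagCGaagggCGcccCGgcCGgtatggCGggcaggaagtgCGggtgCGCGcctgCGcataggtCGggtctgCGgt
DAB1 internal start: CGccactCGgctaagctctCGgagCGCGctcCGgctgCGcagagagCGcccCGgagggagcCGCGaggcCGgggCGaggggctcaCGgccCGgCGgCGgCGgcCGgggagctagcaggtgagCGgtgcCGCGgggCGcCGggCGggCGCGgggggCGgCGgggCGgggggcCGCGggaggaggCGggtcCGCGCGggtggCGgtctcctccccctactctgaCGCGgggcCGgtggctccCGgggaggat
CNTNAP2: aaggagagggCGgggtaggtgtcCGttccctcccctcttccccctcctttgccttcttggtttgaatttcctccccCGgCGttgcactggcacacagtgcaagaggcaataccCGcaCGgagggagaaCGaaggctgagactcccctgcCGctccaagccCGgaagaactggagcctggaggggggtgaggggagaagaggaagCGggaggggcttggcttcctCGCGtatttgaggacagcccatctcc
The stretches hold 20, 23, 41 and 12 CG pairs in this order, against a median of 11 over 35116 promoters. The internal DAB1 stretch holds more than 98.3% of all promoters do, the outermost more than 74.2%, DPYD more than 67.6% and CNTNAP2 more than 51.5%. The step was the mean of the 5 windows to the right of the promoter's window minus that of the 5 to its left. At DPYD it was 117, 127 and 118 points in the untreated libraries, 81.1 and 24.6 at day 7, 15.2 and 55.4 at day 14, 20.5, 43.0, 62.0 and 37.8 at day 28, and 18.9 and 49.0 in lines 5 and 10. Each treated or resistant library lay below each untreated library there. The start is shown because of its untreated step, so this is a description. At the outermost DAB1 start the untreated steps were 57.6, 70.1 and 58.4 points and those of day 28 were 17.5, 27.8, 28.4 and 21.1, without overlap, whereas day 7 replicate 1 (66.7) and line 10 (63.2) lay among the untreated ones. At the internal DAB1 start they were 9.16, -35.1 and -16.4 untreated, and at CNTNAP2 8.08, -3.90 and 6.57, so the CG-richest stretch showed no rise. A further DAB1 start, in the window from 58240001, showed no rise either (-11.2 ± 2.5 points untreated, SD, n = 3). Steps were also small at the listed CTNNA3 starts (-0.08 ± 7.57 and 3.21 ± 6.46 points, SD, n = 3), whereas polarity fell by 26.6 ± 13.4 points (SD, n = 3) across the LSAMP start.

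In untreated cells 5 of the 6 genes had a clear polarity gradient, and in 4 leftward forks held the right part of the gene. These were DAB1, DPYD, CNTNAP2 and CTNNA3. To the left of that part CNTNAP2, CTNNA3 and DAB1 had a long stretch near 0, whereas DPYD passed through 0 within a short one. LSAMP was crossed by rightward forks from end to end. LRP1B had hardly any preferred direction. A window was called flat where the running mean of 5 untreated windows lay within 20 points of 0, as it did in 33.9% of the genome. Windows without a running mean counted as not flat, and 140068 of the 151538 windows of the genome had one. The shares of the genome and of LRP1B are therefore too low. Flat windows made up 68.1% of LRP1B (64 of 94 windows, with 79 measured), 68.7% of CNTNAP2, 41.3% of CTNNA3, 35.1% of DAB1, 21.4% of DPYD and 3.23% of LSAMP. The longest unbroken flat stretch was 1200 kb in CNTNAP2, 880 kb in LRP1B, 560 kb in CTNNA3, 540 kb in DAB1, 160 kb in DPYD and 20 kb in LSAMP.

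**Figure D1:**
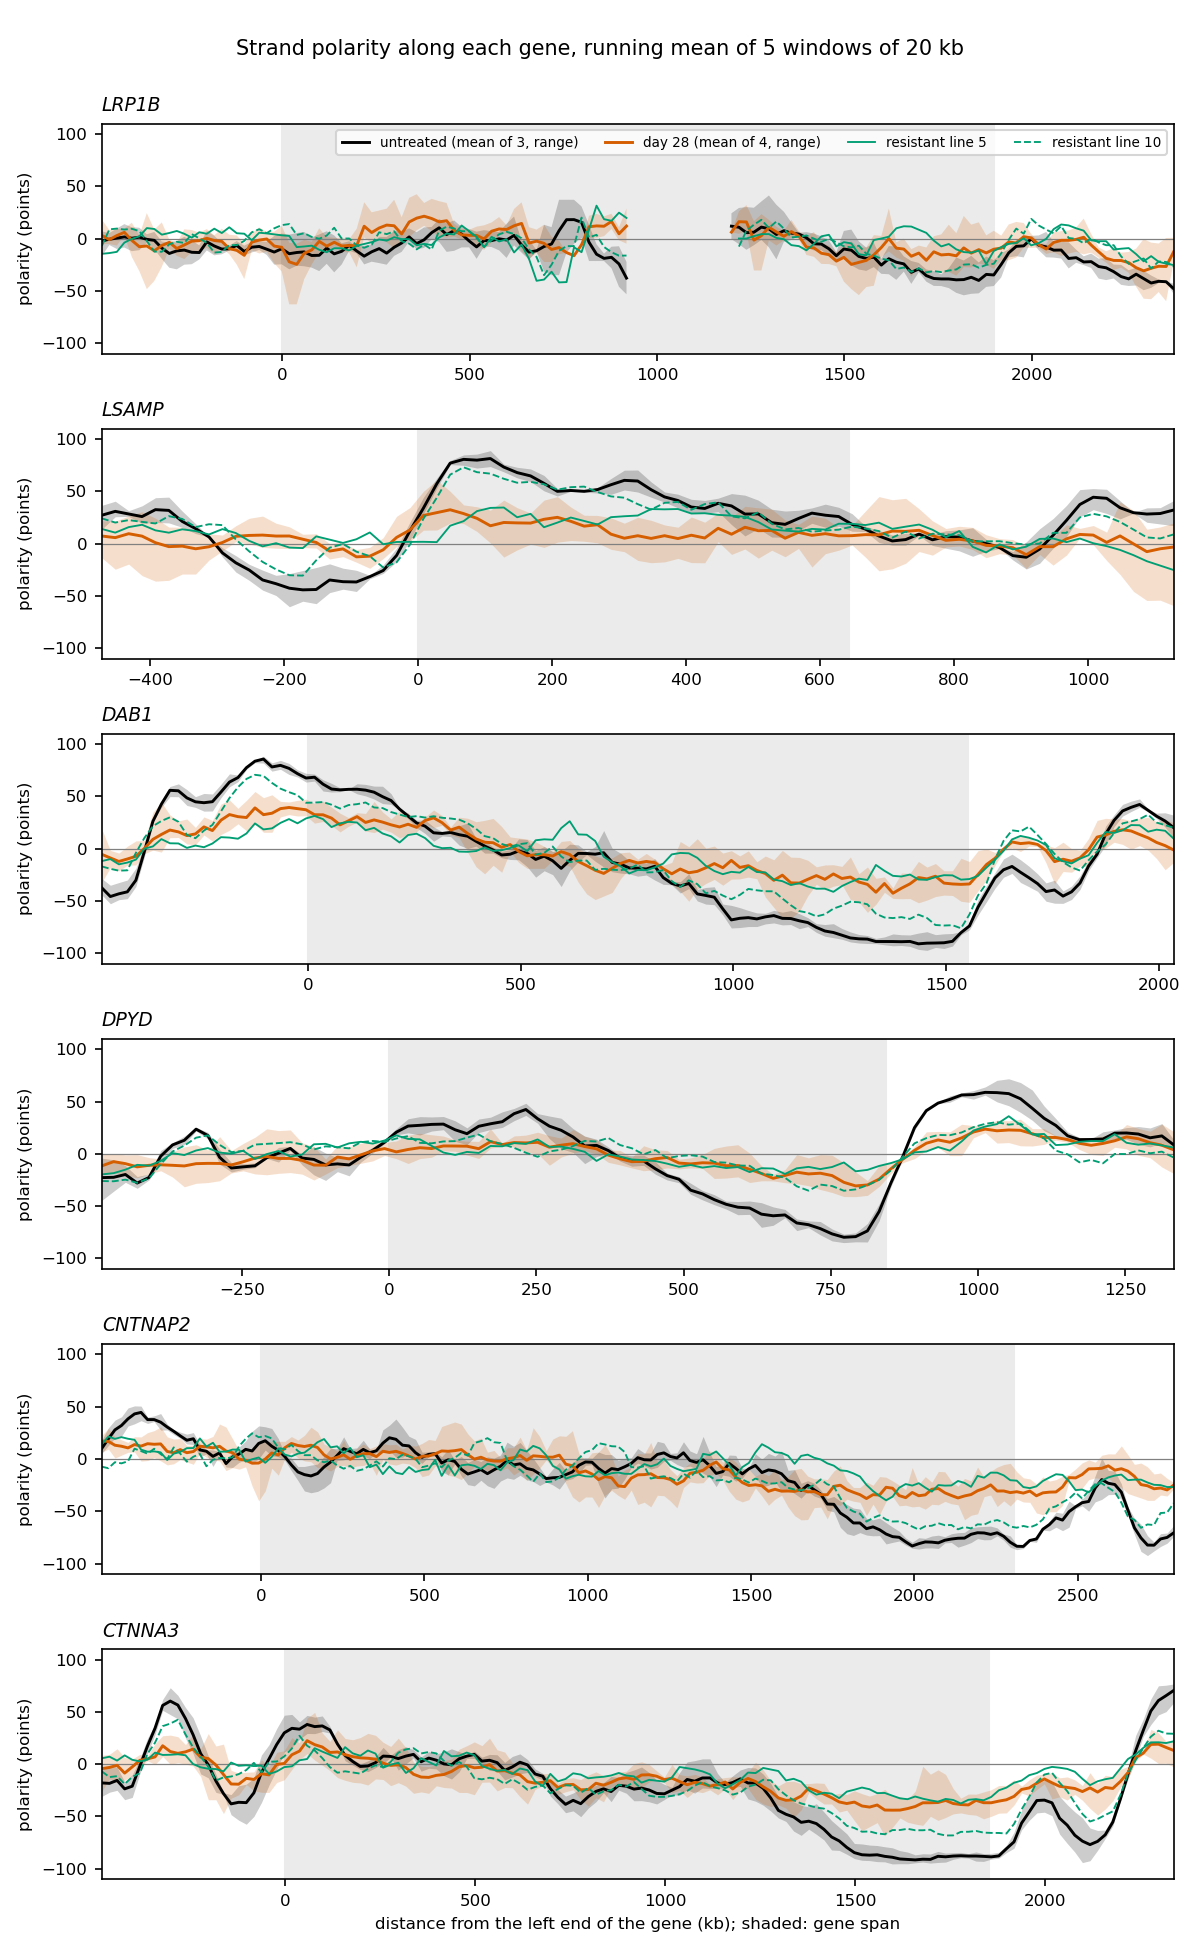
Strand polarity in points (running mean of 5 windows of 20 kb) against distance from the left end of each gene in kb, with the gene shaded; black is the mean of 3 untreated libraries and orange the mean of 4 day 28 libraries, each with its range, and the green lines are resistant lines 5 and 10. The untreated curves of DAB1, DPYD, CNTNAP2 and CTNNA3 run from near 0 or above on the left to far below 0 on the right. That of LSAMP falls below 0 on the left flank and lies above 0 along the gene. That of LRP1B stays near 0 and breaks off in the middle. The day 28 curves are flatter except in LRP1B.

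The size of a gradient was measured by cutting the windows of a gene into 3 equal stretches and subtracting the mean polarity of the left stretch from that of the right, called here the end-to-end difference. At day 28 the difference lay nearer to 0 than in untreated cells in 4 of the 6 genes, DAB1, DPYD, CTNNA3 and LSAMP (limma, adjusted p under 0.05). This is a share close to that of long genes in general, of which 461 of 766 tested (60.2%) passed, each of them nearer to 0. CNTNAP2 and LRP1B did not pass. The median size of the difference over the 6 genes was 72.5 points untreated and 32.8 at day 28, against 57.7 and 18.2 over all long genes tested.

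LSAMP is a minus-strand gene, so that transcription from its right end would run against the rightward forks that crossed it. In untreated cells polarity turned from leftward to rightward within 22.4 kb of its left end, close to GAP43, a growth cone protein gene that is its left neighbour. This was the largest rise in the region, from -25.7 to 77.0 points between the 100 kb to the left and the 100 kb to the right of 115800001. It measured 104, 99.8 and 104 points in the untreated libraries, 9.34 in the only day 7 library with enough values, 43.0 and 68.6 at day 14, 34.0, 35.4, 39.4 and 44.3 at day 28, and 17.8 and 88.8 in lines 5 and 10. All treated libraries with a value and both lines lay below the untreated ones. The point was chosen as the largest rise of these untreated libraries, which favours that order, so it is a description. From there polarity faded along the gene, from 77.0 ± 2.2 points (SD, n = 3) in the first 100 kb bin to 18.4 ± 9.0 in the last bin that starts inside it.

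The left-stretch mean of LSAMP was 70.7, 78.1 and 69.2 points untreated, 19.7 and 21.7 at day 7, 24.4 and 57.1 at day 14, 27.8, 20.5, 33.1 and 15.3 at day 28, and 25.0 and 66.0 in lines 5 and 10. Every osimertinib library was below every untreated library, and line 10 fell just short of the lowest of these. The right stretch was less far apart, at 40.2, 32.6 and 13.4 points untreated and 3.18, 31.0, 14.3 and 1.03 at day 28, and these groups overlapped. The end-to-end difference was -30.5, -45.5 and -55.8 points untreated and -24.6, 10.5, -18.9 and -14.2 at day 28. It moved by 32.1 ± 12.8 points (SE; limma, adjusted p = 0.0309). That call was lost without untreated replicate 2 (adjusted p = 0.0759), untreated replicate 3 (0.127) or day 28 replicate 2 (0.123), and with windows shifted by 10 kb (0.0629).

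CNTNAP2, the longest of the 6 genes at 2304 kb, was flat through most of its length and leftward in its right part. The largest fall near it, from -24.5 to -82.4 points, lay beyond its right end at 148780001, at CUL1 and EZH2, a ubiquitin ligase scaffold and a histone methyltransferase. Untreated 100 kb bins from 146200001 to 147600001 lay between -15.0 and 13.2 points, and then reached -43.1 ± 5.7, -61.2 ± 11.8 and -74.3 ± 8.0 (SD, n = 3) in the bins from 147800001, 147900001 and 148000001. The last bin that starts inside the gene, from 148400001, stood at -83.7 ± 1.7 untreated and at -32.7 ± 10.2 at day 28 (SD, n = 4; limma, adjusted p = 0.00206).

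The left stretch of CNTNAP2 lay at 2.84, -2.38 and 1.63 points untreated and between 1.16 and 6.88 at day 28, near 0 in both groups. The right stretch was -63.5, -57.6 and -53.8 points untreated, -40.2 and -16.4 at day 7, -31.8 and -49.0 at day 14, -33.3, -27.0, -33.9 and -33.9 at day 28, and -15.5 and -49.2 in lines 5 and 10. Every treated library and both lines lay nearer to 0 than all untreated ones. The end-to-end difference was -66.3, -55.2 and -55.4 points untreated and -38.2, -28.1, -40.1 and -40.8 at day 28. These groups did not overlap, but the move of 22.2 ± 12.9 points (SE) missed the threshold (limma, adjusted p = 0.137). It passed when the outer stretches of a cut into 4 were compared (38.3 points, adjusted p = 0.0262) and with array weights (24.1 points, adjusted p = 0.0240).

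The running mean of the untreated profile of CTNNA3 changed sign 11 times across gene and flanks (9, 15 and 9 times in the single untreated libraries). It did so 12 times in LRP1B, which stayed near 0, 9 times in CNTNAP2, 7 in DPYD, 4 in LSAMP and 3 in DAB1. Each crossing of 0 was counted, however small, so these are not all turns of fork direction. To the left of the gene lay a peak of 43.6 ± 16.3 points (SD, n = 3) in the bin from 65600001 and a trough of -28.2 ± 0.8 in the next bin. Polarity then stood at 33.4 ± 8.6 at the left end of the gene, within 10 points of 0 from 66100001 to 66600000, and between -21.5 and -18.0 in the bins from 66900001 to 67100001, which hold the nested LRRTM3, a synaptic adhesion gene on chromosome 10 (66926036 to 67101551). From there it went to -91.2 ± 6.1 in the bin from 67500001 and turned rightward only beyond the gene at 68140001, near HERC4, MYPN and ATOH7.

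The turn at 68140001 was the largest rise around CTNNA3 and measured 119, 111 and 88.7 points in the untreated libraries. It was 65.6 and 25.3 points at day 7, 64.9 and 50.9 at day 14, 63.6, 17.6, 53.6 and 33.5 at day 28, and 33.9 and 71.4 in lines 5 and 10. All of these were below the lowest untreated value. The largest fall, at 65680001 on the left flank, went from -72.5 ± 2.6 points untreated (SD, n = 3) to -11.2 ± 23.9 at day 28 (SD, n = 4), with 0.654, 16.0, -24.0 and -37.2 in the single libraries. These points were chosen from the untreated values and are a description.

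The right stretch of CTNNA3 lay at -80.6, -80.5 and -66.1 points untreated, -52.1 and -31.6 at day 7, -32.7 and -63.9 at day 14, -44.8, -34.0, -35.2 and -29.1 at day 28, and -26.6 and -52.9 in lines 5 and 10. Again no treated or resistant library reached an untreated one. The end-to-end difference was -93.4, -89.4 and -75.6 points untreated, -47.8 and -33.8 at day 7, -40.9 and -59.8 at day 14, -37.2, -27.0, -39.7 and -46.1 at day 28, and -30.7 and -53.8 in the lines. At day 28 it had moved by 48.6 ± 13.7 points (SE; limma, adjusted p = 0.00329).

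DAB1 went from rightward at its left end to leftward at its right end across 1552 kb, with the flat stretch of 540 kb between them. Its forks came in from the left at PLPP3, PRKAA2 and FYB2, of which PLPP3 encodes a lipid phosphatase and PRKAA2 a catalytic subunit of AMP-activated kinase. On the right the profile rose at the outermost start, where the RefSeq span of DAB1 ends with that of OMA1, a mitochondrial protease gene, and turned rightward at 58860001 near JUN, a transcription factor gene. Untreated 100 kb bins fell from 77.6 ± 1.4 points (SD, n = 3) at 56800001 through -6.0 ± 3.2 at 57400001 to -90.3 ± 9.6 at 58400001. At day 28 the same bins were 29.8 ± 13.4, 1.4 ± 18.0 and -28.9 ± 14.1 (SD, n = 4), so the left flank and the right end had come nearer to 0 (limma, adjusted p = 0.00448 and 0.00158) and the bin in the flat stretch did not pass (adjusted p = 0.584). The bins at the left end of the gene itself, from 57000001 and 57100001, did not pass either (57.1 to 29.3 points, adjusted p = 0.0567, and 54.1 to 27.6, adjusted p = 0.0735).

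The left rise of DAB1 at 56620001 measured 106, 105 and 79.8 points untreated, 52.1 and 23.6 at day 7, 22.6 and -24.1 at day 14, 27.9, 31.9, 21.0 and 30.0 at day 28, and 18.4 and 50.7 in lines 5 and 10. All treated and resistant libraries lay below the untreated ones. This point too was chosen from the untreated values, which favours that order, so it is a description. The end-to-end difference was -108, -114 and -106 points untreated, -68.7 and -35.7 at day 7, -51.0 and -132 at day 14, -61.9, -46.2, -59.4 and -38.5 at day 28, and -39.8 and -88.1 in the lines. Day 14 replicate 2 was steeper than every untreated library, with a left stretch at 56.2 points against 27.2 to 30.0 untreated. At day 28 the difference had moved by 58.0 ± 19.1 points (SE; limma, adjusted p = 0.0100).

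DPYD rose on its left flank at PTBP2, a neuronal splicing factor gene, was rightward by 26.5 to 28.8 points in the bins of its left part, passed 0 at 97460001 and was leftward up to its own promoter. There the profile jumped, from -79.8 ± 4.4 points (SD, n = 3) in the bin from 97800001 to 56.3 ± 1.9 in the bin from 98000001. At day 28 these bins stood at -27.2 ± 13.5 and 15.3 ± 12.5 (SD, n = 4; limma, adjusted p = 0.00176 and 0.00430). DPYD is a minus-strand gene, so on this reading forks left its promoter in the direction of its transcription.

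The end-to-end difference of DPYD was -102, -95.9 and -93.3 points untreated, -54.6 and -25.0 at day 7, -23.2 and -63.4 at day 14, -20.8, -27.8, -47.5 and -19.3 at day 28, and -23.3 and -36.3 in lines 5 and 10. No treated or resistant library reached an untreated one. At day 28 the move was 68.2 ± 14.1 points (SE; limma, adjusted p = 0.000168), and it kept its call without any 1 library.

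LRP1B gave the weakest profile and the fewest values. Its end-to-end difference was -2.49, -7.44 and -28.1 points untreated, -21.6 and 2.26 at day 7, -13.3 and -37.5 at day 14, -31.5, -9.21, -16.1 and -5.05 at day 28, and -0.221 and -14.1 in lines 5 and 10. The groups overlapped throughout, and at day 28 the change was -2.77 ± 11.2 points (SE; limma, adjusted p = 0.844). Within the gene, untreated bins below -30 points were found only near the right end, with -35.5 ± 5.8 and -39.3 ± 16.9 points (SD, n = 3) in the bins from 141900001 and 142000001. The second of these was at -9.0 ± 21.2 at day 28 (SD, n = 4; adjusted p = 0.0257).

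Inside LRP1B a stretch of 270 kb, chromosome 2 from 141160001 to 141430000, had no value in any of the 13 libraries. No other of the 898 long genes held a run of 13 adjoining full windows without a value. Apart from LRP1B it holds only the pseudogenes RNU6-904P and RPS16P3. Next to it on the left, values were present in 25, 19 and 27 of 29 overlapping windows in the untreated libraries, in 0 and 16 at day 7, in 5 and 2 at day 14, in 6, 21, 28 and 1 at day 28, and in 24 and 24 in lines 5 and 10. On the right the counts were 29, 28 and 29 of 29 untreated, 4 and 28, 21 and 11, and 22, 29, 29 and 22 at days 7, 14 and 28, and 29 and 29 in the lines. The libraries with few values here are also those with fewer values in the whole genome, and the cause of the missing stretch was not tested.

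**Figure D2:**
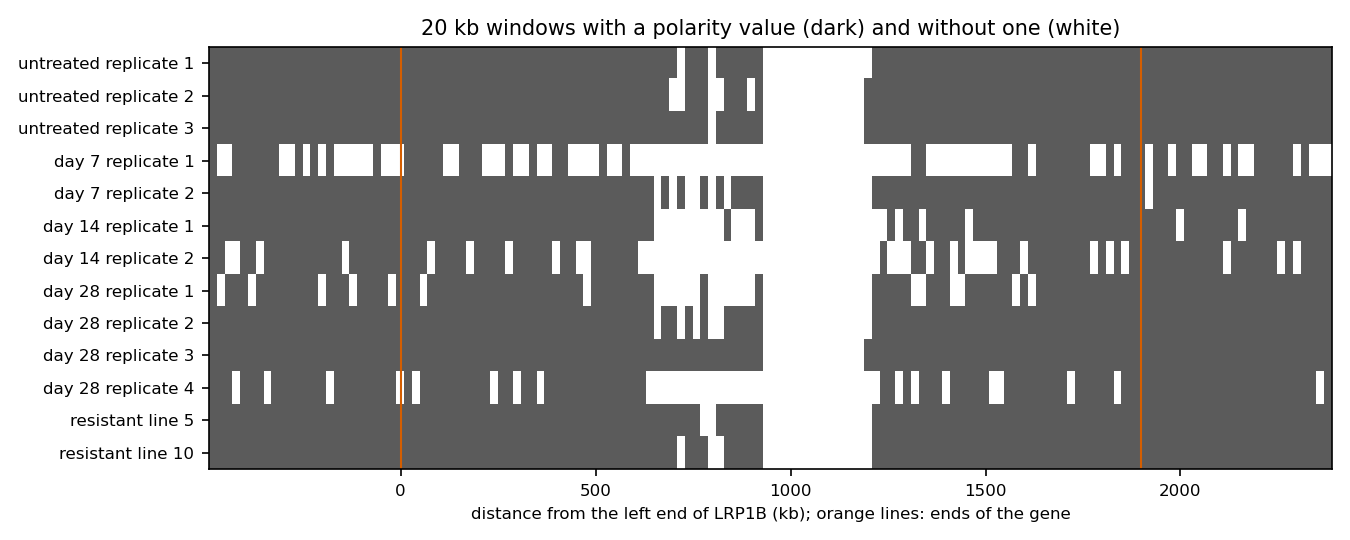
Each row is a library and each cell a 20 kb window at its distance in kb from the left end of LRP1B; dark cells have a polarity value and white cells have none, and orange lines mark the ends of the gene. All 13 rows are white in the stretch of 270 kb, and the day 7 replicate 1, day 14 and day 28 replicate 1 and 4 rows are also white to its left.

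At day 7 the end-to-end differences of DAB1, DPYD, CTNNA3 and LSAMP had changed (limma, adjusted p = 0.0405, 0.00703, 0.0249 and 0.0192), against 45.8% of long genes (351 of 766). CNTNAP2 (adjusted p = 0.127) and LRP1B (0.879) did not pass. The moves were 57.3 ± 22.9 points in DAB1, 57.3 ± 16.8 in DPYD, 45.3 ± 16.4 in CTNNA3 and 44.3 ± 15.3 in LSAMP (SE). The sign of LSAMP itself was turned in day 7 replicate 1, the library with the fewest values, at 14.4 points. Without day 7 replicate 2 only 1 of the 4 calls was left, and without any of the untreated libraries 2.

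At day 14 DPYD alone passed, with a move of 53.8 ± 16.8 points (SE; limma, adjusted p = 0.0145), against 38.9% of long genes (298 of 766). CTNNA3 moved by 35.7 ± 16.4 points (adjusted p = 0.0831), and DAB1 by 17.9 ± 22.9 (adjusted p = 0.552), its 2 libraries lying on either side of the untreated ones. The DPYD call was lost without day 14 replicate 1 (33.6 points, adjusted p = 0.243) or untreated replicate 1 (51.3 points, adjusted p = 0.0506). Between the treated groups and between the resistant lines and day 28, 24 differences over the 6 genes were tested and 0 passed (limma, smallest adjusted p = 0.538; 0 at an unadjusted p under 0.05). This does not show that the groups were alike.

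In the resistant lines DPYD and CTNNA3 differed from untreated cells, by 67.3 ± 16.8 and 43.9 ± 16.4 points (SE; limma, adjusted p = 0.00784 and 0.0380), against 35.4% of long genes (271 of 766). The 2 lines stood apart from each other in all 6 genes, line 5 always nearer to 0 than line 10. In CNTNAP2 line 5 had -14.1 points and line 10 had -51.8, and in LSAMP -5.10 and -48.2. With 1 library a line this difference has no test. Without line 5 none of the 6 genes passed, and without line 10 there were 4.

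**Figure D3:**
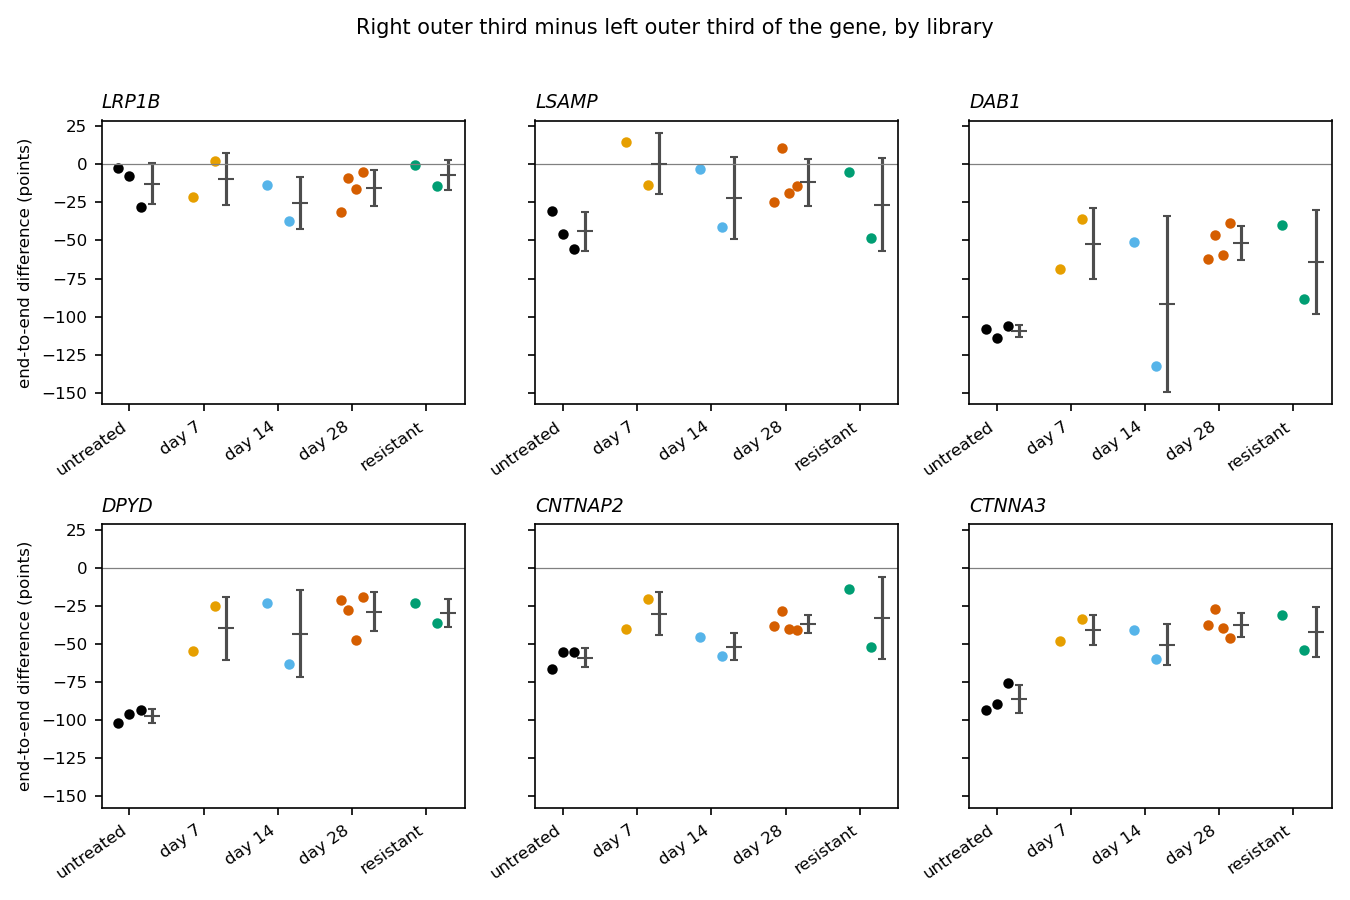
End-to-end difference in points (right stretch minus left stretch of the gene) for each library as a dot, by group, with the mean and SD of each group as a bar. In DAB1, DPYD, CTNNA3, CNTNAP2 and LSAMP the day 28 dots lie above all untreated dots. The share of long genes in which they do so is not given here. Day 14 replicate 2 lies below the untreated dots in DAB1, and in LRP1B all groups overlap.

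The amplitude of the whole profile was taken as the slope of a library's polarity on the mean of pairs of untreated libraries, each pair without the library itself, over the gene and its flanks. A library with the untreated profile at full height has a slope near 1, less what noise in the reference takes away. The slopes of the 8 osimertinib libraries lay below those of all 3 untreated libraries in 5 of the 6 genes, a count to be read beside 76.3% of long genes (681 of 892). The exception was LRP1B.

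Of the 5 genes LSAMP kept least of its height, with slopes of 0.863, 1.07 and 0.689 untreated, 0.054 and 0.088 at day 7, 0.367 and 0.452 at day 14, and 0.110, 0.162, 0.284 and 0.059 at day 28. Its osimertinib mean was 22.6% of the untreated mean. DAB1 kept most, with 0.993, 1.02 and 0.850 untreated, 0.556 and 0.365 at day 7, 0.398 and 0.819 at day 14 and 0.366, 0.312, 0.489 and 0.377 at day 28, or 48.2% of the untreated mean. The shares were 36.0% in DPYD, 43.4% in CNTNAP2 and 45.0% in CTNNA3.

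In each of these 5 genes the two-sided exact permutation test of 3 untreated against 8 osimertinib libraries gave p = 0.0121, the smallest it can give, and an adjusted p of 0.0159 over all long genes, 91.8% of which passed. Labels were exchanged over the slopes as computed, and the reference profile stayed that of the untreated libraries. For the slopes this p is therefore approximate. Slopes at LRP1B were 0.198, 0.573 and 0.377 untreated and ran from -0.060 to 0.453 with osimertinib, with an exact permutation p of 0.364 (adjusted p = 0.367). Without any of the 3 untreated libraries the adjusted p of the 5 genes was 0.0501 to 0.103, in a test whose smallest possible p is then 0.0444. The median slope of the 6 genes was 0.895 untreated and 0.347 with osimertinib, beside 0.913 and 0.352 over 892 long genes.

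Slopes in lines 5 and 10 were 0.175 and 0.632 in LSAMP, 0.234 and 0.565 in CNTNAP2, 0.254 and 0.574 in CTNNA3, 0.306 and 0.692 in DAB1, 0.242 and 0.377 in DPYD, and -0.017 and 0.410 in LRP1B. Line 10 was higher in all 6. Over the whole genome the slopes of these libraries were 0.285 and 0.641, so the order is that of the libraries as a whole. In line 10 LSAMP and DAB1 lay near the genome value and DPYD lay below it, which was not tested.

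**Figure D4:**
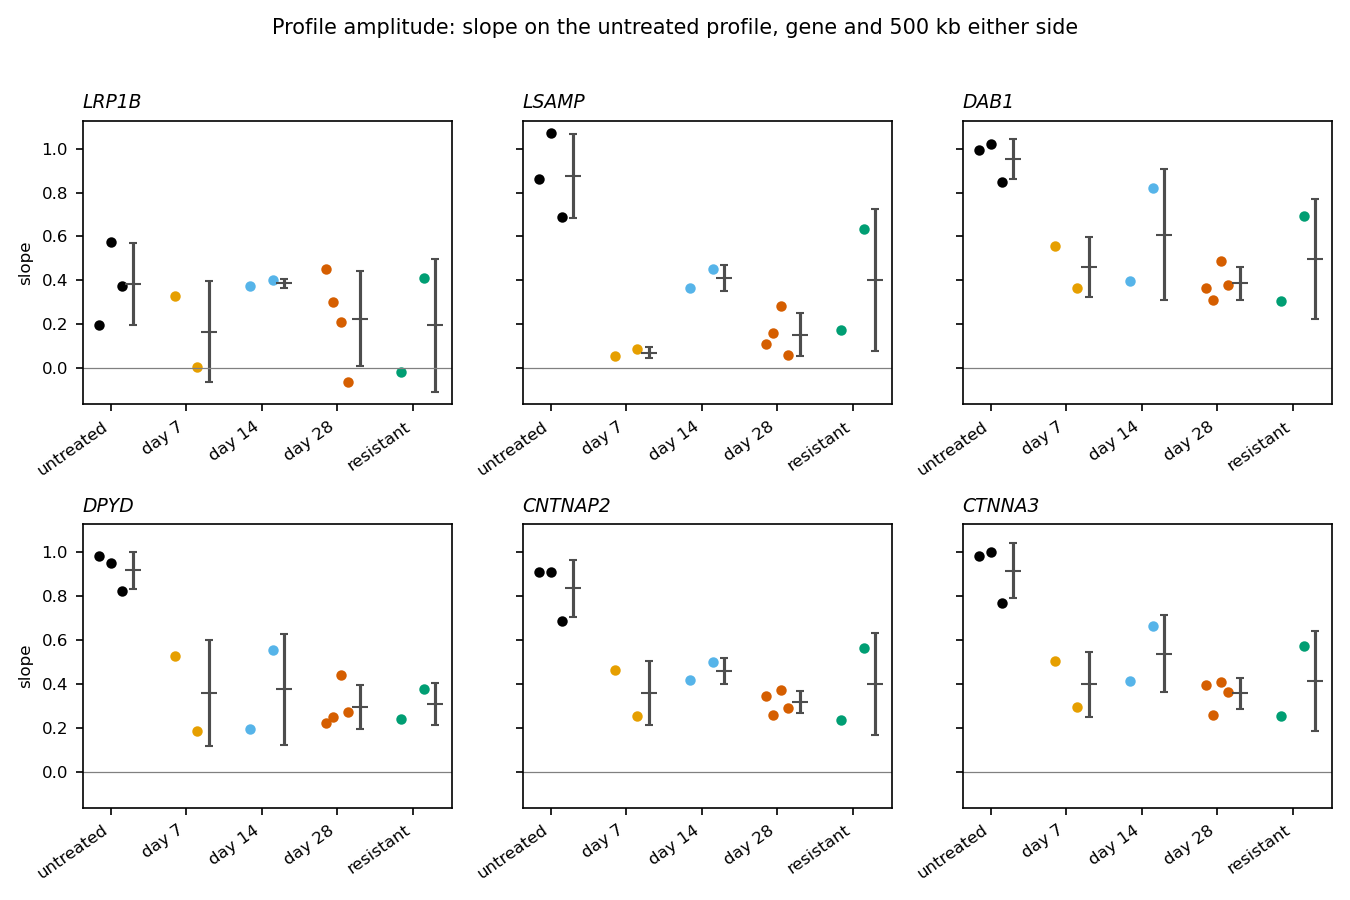
Slope of each library's polarity on the untreated profile over the gene and 500 kb on either side (dots), by group, with mean and SD as bars; a slope of 0 means that nothing of the untreated form is left. In all genes but LRP1B the osimertinib dots lie below the untreated dots, and line 10 lies above line 5 in each panel.

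The place where converging forks met was taken as the point inside a gene at which the polarity summed from the left end was highest, windows without a value counting as 0. In untreated cells it lay 565, 425 and 445 kb from the left end of DAB1, 362, 282 and 362 kb from that of DPYD and 607, 547 and 527 kb from that of CTNNA3. In CNTNAP2 it was scattered, at 563, 63.2 and 763 kb. In LSAMP it lay at the right end (638 kb) in all 3, as forks ran rightward through the gene, and in LRP1B it ranged from 8.58 to 1409 kb.

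With osimertinib the place in DAB1 was 405 and 585 kb at day 7, 445 and 525 at day 14, 485, 445, 545 and 365 at day 28, and 665 and 545 in lines 5 and 10. These values surround the untreated ones. In CTNNA3 it was 107 and 467 kb at day 7, 347 and 167 at day 14, 227, 107, 527 and 587 at day 28, and 527 and 447 in the lines, so that 6 of the 8 osimertinib libraries lay to the left of all untreated ones. Of the 6 genes it had the smallest exact permutation p (two-sided, 0.0606; adjusted p = 0.746). In DPYD p was 0.339, in CNTNAP2 0.400, in LSAMP 0.424, in LRP1B 0.970 and in DAB1 1 by the same exact test. Over all 898 long genes 0 passed after adjustment (0%) and 68 (7.57%) had an unadjusted p under 0.05.

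**Figure D5:**
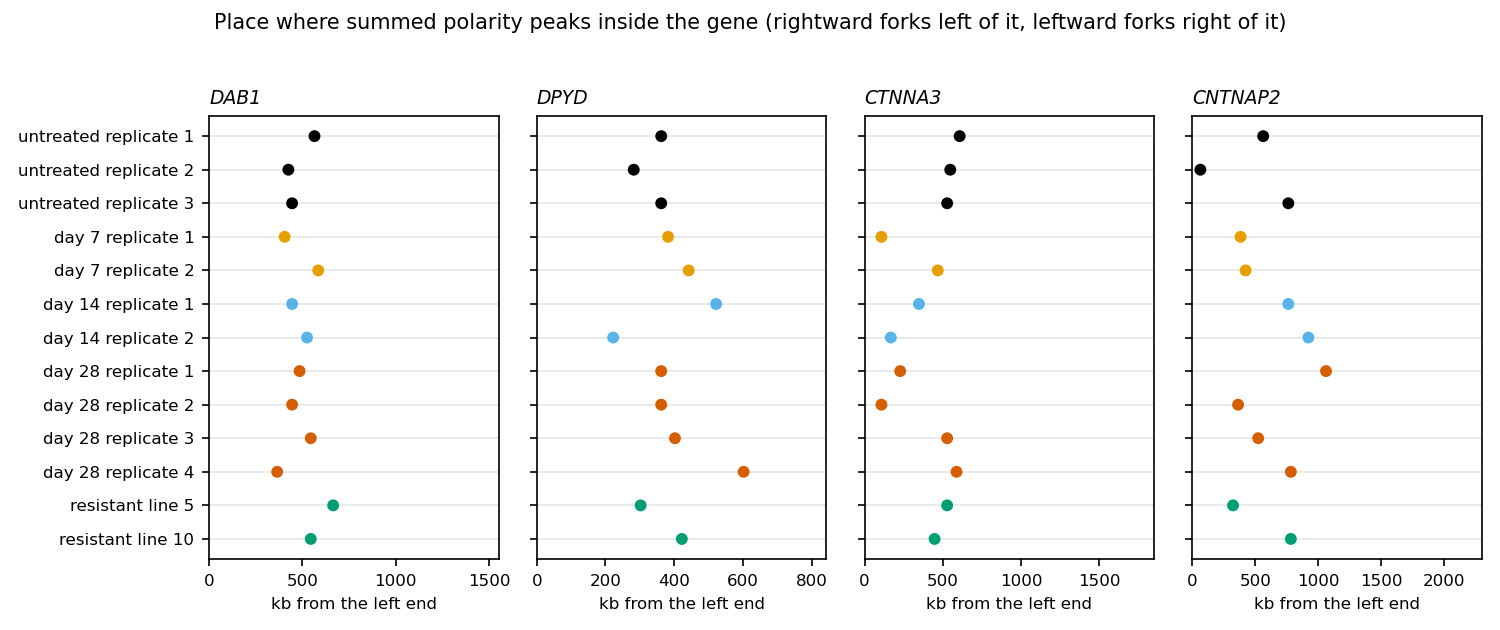
Place inside the gene, in kb from its left end, at which summed polarity was highest, for each of the 13 libraries in DAB1, DPYD, CTNNA3 and CNTNAP2. Dots of DAB1 lie between 365 and 665 kb and those of DPYD between 222 and 602 kb, with treated dots on both sides of the untreated ones, and those of CTNNA3 and CNTNAP2 are spread more widely.

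Window by window, 44 of the 418 tested 20 kb windows of the 6 regions had changed at day 28 (limma, adjusted p under 0.05), against 11.5% of all 80351 windows. All 44 had moved in the direction of 0. That direction was scored from the same untreated values, and a window near either limit of polarity can hardly move otherwise. It is therefore a description and not a trait of these genes. They were 14 of 87 in DAB1, 13 of 112 in CTNNA3, 6 of 84 in DPYD, 6 of 37 in LSAMP, 5 of 65 in CNTNAP2 and 0 of 33 in LRP1B. Inside DAB1 47 windows were tested and 10 called, and these 10 lay between 57940001 and 58500000, in the leftward right part. None lay in its flat stretch or at its left end. How many windows were tested there is not given, so this does not show that polarity was unchanged there. At day 7 there were 8 such windows (background 1.1%), at day 14 there were 3 (0.631%) and in the lines 0 (0%; 45 at an unadjusted p under 0.05, and 2 with array weights). The count at day 28 was 0 without any 1 of the untreated libraries or of day 28 replicates 1 and 2.

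Bins of 100 kb, which average over more values, held more calls. At day 28 they were 45 of 123 (against 42.4% of all bins), with 14 of 24 in DAB1, 9 of 27 in CTNNA3, 7 of 18 in DPYD, 7 of 22 in CNTNAP2, 6 of 15 in LSAMP and 2 of 17 in LRP1B. At day 7 there were 24 (20.5%), at day 14 there were 8 (10.8%) and in the lines 1 (2.5%).

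The called windows with the largest changes show how far single libraries went. On the left flank of DAB1 (56680001 to 56700000) the untreated libraries stood at 33.3, 59.0 and 56.2 points and those of day 14 at -42.9 and -71.4 (adjusted p = 0.0405). Of the windows of DAB1 and its flanks called at day 28, the largest change was inside the gene (58380001 to 58400000). It went from -95.9, -95.2 and -80.5 to 27.3, -14.3, -46.3 and -30.0 (limma, adjusted p = 0.0295). In LSAMP (115940001 to 115960000) the untreated values were 93.1, 83.8 and 71.4, the day 14 values -9.09 and -25.0 and the day 28 values -7.69, 42.9, 31.8 and -50.0 (limma, adjusted p = 0.0443 at day 14 and 0.0293 at day 28). Both groups of LSAMP lay below all untreated libraries and some of their libraries had changed sign.

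In CTNNA3 (67560001 to 67580000) the untreated windows were at -94.9, -100 and -90.3 points and those of day 7 at 20.0 and -12.5 (limma, adjusted p = 0.0321). In DPYD (97900001 to 97920000), the window next to its promoter, the untreated values were -76.7, -73.6 and -83.3 and those of day 14 were 5.26 and 33.3 (adjusted p = 0.0309). In CNTNAP2 (148180001 to 148200000) the untreated values were -94.7, -56.5 and -79.3 and those of day 7 were 20.0 and 5.88 (adjusted p = 0.0352). These windows were picked by the size of their change, so the change is a description.

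Other long genes of neurons gave a comparison list of 26, among them the adhesion, guidance and synapse genes CNTN4, DLG2 and ROBO1. Of the 25 tested, 5 had a changed end-to-end difference at day 28 (CNTN4, DLG2, DSCAM, NLGN1 and ROBO1), against 60.2% of all long genes. At day 7 there were 3 (CNTN6, KCNIP4 and NTM), against 45.8%, and at day 14 there was 1 (CADM2), against 38.9%. In the lines there were 0 (limma, 2 at an unadjusted p under 0.05), against 35.4%. All 9 calls were nearer to 0 than untreated. Their untreated gradients were smaller, with a median size of 35.2 points against 72.5 in the 6 genes, and 14.1 points at day 28. The median slope of the list was 0.725 untreated and 0.350 with osimertinib, and the groups did not overlap in 8 of 25, against 76.3% of all long genes.

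The untreated form of each gene was compared with that of 728 other long protein-coding genes over 20 equal bins from left to right end. DPYD was most like MACF1 (Pearson r = 0.990) and ATP8A2 (0.987), and DAB1 most like CDH13 (0.985) and MAML2 (0.984). CTNNA3 came nearest to CAMK1D (0.963) and NKAIN2 (0.962), CNTNAP2 to CNTLN (0.961) and DYNC2H1 (0.958), and LSAMP to CAMKMT (0.932) and EPHA6 (0.931). LRP1B, with 18 bins, had its best matches at 0.850 (HHAT) and 0.83 (FAM135B). These are descriptions across bins of the same 3 libraries, in which neighbouring bins are not independent, and a likeness of form leaves the height open: HHAT ran from 70.5 points in its first bin to 34.4 in its last.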

How the data were processed

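The deposited table holds strand polarity per 20 kb window every 10 kb, from -100 to 100, for 13 libraries, and is treated as a score because a percent cannot be negative. That it is the difference of reads on the strands over their sum was inferred from its range. The formula is not given in the sources used here, nor are the strand convention, read counts and smallest number of reads behind a value. Per the submitters' processing notes, the tools were Bowtie2 2.4.1 and Trim Galore 0.6.5, and both GRCh38 and GRCm38 appear there as builds. As the cells are human, gene spans were taken from RefSeq on GRCh38.p14.

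Non-overlapping full windows were kept. Groups were compared with limma 3.58.1 (R 4.3.3; lmFit and eBayes with a trend) in 1 fit of all 13 libraries, with Benjamini-Hochberg adjustment over 80351 windows with a value in all libraries, or over 766 long genes (at least 15 windows) with at least 2 values in each outer stretch. The resistant lines entered as a group of 2. Amplitude and place of convergence were tested by exact permutation, adjusted over all long genes with a value. Missing values were left out, except that in the sum behind the place of convergence a window without a value counted as 0. The fits were run on simulated data with independent noise and a shift in a part of the windows or genes at day 28. The simulated data held no flattening of the whole profile, so they do not test the fits in that setting. The most alike libraries shared 3.27% of values, so none was a copy.

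The members and lists were chosen with earlier results of these data known. Named in each gene were the largest rise and fall and the sign changes of the untreated mean, up to 2 called windows per comparison with the largest change, neighbouring genes within 100 kb of these points, and the 2 genes most alike in untreated form. A few bins were named after their values were seen. Alternatives were array weights, a value rule of 1 per group, shifted windows, 100 kb bins, genes cut into 4, the gene span alone, the replicate number as a block, each library left out, and day 28 replicates 3 and 4 left out or placed at day 7.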

Additional observations from a re-analysis of the deposited data

Results flagged for a closer look

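In each group of 4 libraries, the left and right stretch, the end-to-end difference, the slope and the place of convergence were searched for a library far from the other 3. Of 30 such groups (5 measures in 6 genes at day 28) 3 held such a library. The cut-off used gives about 1 in 20 groups by chance for independent and normally spread values. The 5 measures come from the same windows and depend on each other, and the place of convergence is the place of a maximum. That rate therefore need not hold here, and 3 of 30 is not read as an excess. In LRP1B the place of convergence in day 28 replicate 4 was 8.58 kb from the left end, against 1369 to 1409 kb in the others. In DPYD it was 602 kb in the same library, against 362 to 402 kb. In CNTNAP2 the right stretch of day 28 replicate 2 stood at -27.0 points, against -33.9 to -33.3 in the others.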

How the results depend on the processing

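The end-to-end calls of DAB1, DPYD and CTNNA3 at day 28 held under all alternatives run, and without any 1 library 3 to 4 of the 6 genes were called at day 28, 1 to 4 at day 7, 0 to 2 at day 14 and 0 to 4 in the lines. With the replicate number as a block there were 4 at day 28, 1 at day 7 and 0 at day 14. Deviations from the group mean had r from -0.074 to 0.069 over 13 pairs of same-numbered libraries, against -0.111 to 0.111 for other pairs. In groups of 2 the deviations of the libraries mirror each other, so these r values are tied. They do not settle whether the numbers pair the libraries. Lines 5 and 10 share no number and could not be fitted with the block. In the lines, 1 gene was called with genes cut into 4 and 1 without day 28 replicates 3 and 4. Day 14 held 0 without untreated replicate 1 or day 14 replicate 1 and 2 without line 5.

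Counts of 20 kb windows moved more. At day 28 the 44 became 124 with array weights, 0 with the block, 17 without day 28 replicates 3 and 4 and 26 with these placed at day 7. Leaving out 1 library gave 0 to 67: leaving out an untreated library, or day 28 replicate 1 or 2, gave 0, day 28 replicate 4 gave 13 and day 7 replicate 1 gave 67. At day 7 the 8 became 4 with a value rule of 1 per group, 0 with array weights, the block or replicates 3 and 4 placed at day 7, 2 without these and 24 in 100 kb bins. The range was 0 to 18: leaving out an untreated library or day 7 replicate 1 gave 0, day 28 replicate 3 gave 1, line 5 gave 2, line 10 gave 3, day 28 replicate 2 gave 4, day 14 replicates 2 and 1 gave 15 and 16, and day 7 replicate 2 gave 18. At day 14 the 3 became 5 with the value rule, 0 with shifted windows, array weights or the block, 1 without day 28 replicates 3 and 4 and 8 in 100 kb bins. The range was 0 to 9: leaving out an untreated library gave 0, day 28 replicate 3 or either line gave 1, day 28 replicate 1 gave 5, day 7 replicate 1 gave 6 and either day 14 library gave 9. In the lines there were 2 with array weights, 1 in 100 kb bins and 0 without any 1 library.

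The slope difference of DAB1 over the gene span alone was -0.427 (exact permutation, adjusted p = 0.0657). Without 1 library the slope difference ran from -0.713 to -0.570 in LSAMP, -0.545 to -0.465 in DAB1, -0.619 to -0.524 in DPYD, -0.492 to -0.391 in CNTNAP2, -0.539 to -0.459 in CTNNA3 and -0.246 to -0.00715 in LRP1B. Directions that turned all belonged to differences that had not passed. For LRP1B these were 2.85 points at day 28 with genes cut into 4, -0.138 at day 7 with the block, and ranges without 1 library of -10.5 to 2.58 at day 28, -8.93 to 14.9 at day 7 and -2.18 to 12.5 in the lines. DAB1 at day 14 ran from -22.7 without day 14 replicate 1 to 58.5 without day 14 replicate 2, and LSAMP in the lines from -4.31 without line 5 to 38.8 without line 10. The cause of these moves was not tested. Unknown depth limits all values in windows, and the libraries with fewer windows with a value were day 7 replicate 1, both of day 14, and day 28 replicates 1 and 4.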
